A study of Mus musculus with 11 samples.

Results

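Glycosyltransferases that build mucin and glycolipid chains were followed in RNA from mouse colon cells sorted as hormone-secreting cells. The members were all symbols of the families B3gnt, B3galt, B4galt, B4galnt, Galnt, Gcnt, Fut, St3gal, St6gal (with St6galnac), St8sia and C1galt1. Members were chosen by their normalised count, which had to reach 10 in 2 libraries or more of either the L-cell or the EC-cell table. Of 49997 listed symbols 82 belonged to these families and 64 met the level rule, 63 of them in L cells, 56 in EC cells and 55 in both. Among the 64, Galnt6os is a noncoding RNA opposite Galnt6 and encodes no enzyme. Without strand its reads and those of Galnt6 cannot be told apart. The 18 symbols left out, such as Fut7 and St8sia1, reached at most 46.3 normalised counts in any library. The level rule used the counts themselves, and the families were taken up with results for B3gnt5, B3gnt7 and Fut4 already known.

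All donors were ovariectomised C57BL/6 female mice, 10 to 14 weeks old, given estradiol benzoate (EB), an estrogen ester, or sesame oil alone as vehicle. L cells, which release peptide YY and glucagon-like peptides, came from Cck-Cre;R26LSL-tdTomato mice collected at 4 hours (3 EB libraries, 2 vehicle libraries), from about 7000 cells per treatment. In that line tdTomato marks any cell in which the Cck promoter has driven Cre. Enterochromaffin (EC) cells, which release serotonin, came from mice of the line ECFLTG, with 4 EB and 2 vehicle libraries of at least 500 cells each, and no time of their own in the labels. Nothing in the labels ties the libraries to different animals, and p-values here reflect only library-to-library spread, which may be technical. Fewer cells of a type and less RNA per cell cannot be told apart in such bulk samples.

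Reads on genes numbered 27658579 to 31449447 per L-cell library and 4955808 to 10640921 per EC-cell library. The 5 L-cell hormone genes Pyy, Gcg, Insl5, Cck and Nts took 0.0154% to 0.28% of normalised counts in L cells. In EC-cell libraries the same 5 genes took 0.115% to 1.745%. The 10 colonocyte markers took 5.44% to 8.96% in L cells. The 7 EC-cell markers took 4.75% to 12.4% in 4 EC-cell libraries but 0.814% and 1.11% in EB replicates 1 and 2. Those 2 libraries also had the highest colonocyte share, 2.53% and 2.57% against 0.217% to 0.813% in the others. Among L cells vehicle replicate 2 stood apart in 7 stromal markers, at 0.0278% of normalised counts against 0.00047% to 0.0019% in the other 4 libraries, with Col3a1, a fibrillar collagen gene, at 4458 against 5.43 to 121. The names L cells and EC cells therefore stand for the libraries so labelled.

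Mucin-type chains start when a polypeptide N-acetylgalactosaminyltransferase (Galnt) puts N-acetylgalactosamine on a serine or threonine of a protein such as a mucin. The sugar is then extended to a core, branched, lengthened with alternating galactose and N-acetylglucosamine, and capped with fucose, sialic acid or a further N-acetylgalactosamine. Several of the same enzyme families work on lipids, where the chain grows on glucosylceramide or galactosylceramide. In the colon such chains coat the mucus and the cell surface, where they carry blood-group and Lewis-type structures.

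The enzyme set was a small part of the RNA. Its members took 0.58% and 0.559% of the normalised counts in vehicle L cells against 0.618%, 0.689% and 0.668% in EB L cells. The EB shares lay above both vehicle shares. All normalised counts together were 3.01e+07 and 3.27e+07 in vehicle against 2.78e+07, 2.85e+07 and 2.83e+07 in EB. With these smaller EB totals, a higher share does not show a higher summed count of the members. In EC cells the share was 0.301% and 0.231% in vehicle against 0.264%, 0.275%, 0.258% and 0.21% in EB, and the groups overlapped. In vehicle L cells 26 members had a mean of 1000 or more normalised counts, 21 lay between 100 and 1000, and 17 lay under 100. In vehicle EC cells only 2 members reached 1000, and 35 lay under 100. Zeros were common in the EC table: 4, 13, 17, 14, 0 and 15 of the 64 members had no read in vehicle replicates 1 and 2 and EB replicates 1 to 4. L-cell libraries had 0 to 3 such members each.

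Promoters of the 3 genes that led the choice of these families are shown because their transcripts were all higher in EB L cells. They are RefSeq windows on GRCm38.p6, 250 bases before to 50 after the annotated start, 5′ to 3′ on the gene's strand. Capitals mark the GC box GGGCGG and the motif GGTCA, an arm of the estrogen response element, each on either strand.
B3gnt5 (chr16:19759984-19760283, plus strand): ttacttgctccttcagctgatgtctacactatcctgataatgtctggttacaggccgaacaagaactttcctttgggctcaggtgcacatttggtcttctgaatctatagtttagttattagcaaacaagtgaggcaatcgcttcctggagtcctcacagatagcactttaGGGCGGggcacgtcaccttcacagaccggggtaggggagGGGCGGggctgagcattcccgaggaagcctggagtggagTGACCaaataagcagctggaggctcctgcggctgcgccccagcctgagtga
B3gnt7 (chr1:86302971-86303270, plus strand): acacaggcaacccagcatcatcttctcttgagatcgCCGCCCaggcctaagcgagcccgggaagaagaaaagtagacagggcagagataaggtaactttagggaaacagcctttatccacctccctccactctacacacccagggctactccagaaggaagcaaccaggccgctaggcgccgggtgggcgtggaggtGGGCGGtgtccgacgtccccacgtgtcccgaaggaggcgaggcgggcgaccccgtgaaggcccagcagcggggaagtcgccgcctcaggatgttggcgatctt
Fut4 (chr9:14752073-14752372, minus strand): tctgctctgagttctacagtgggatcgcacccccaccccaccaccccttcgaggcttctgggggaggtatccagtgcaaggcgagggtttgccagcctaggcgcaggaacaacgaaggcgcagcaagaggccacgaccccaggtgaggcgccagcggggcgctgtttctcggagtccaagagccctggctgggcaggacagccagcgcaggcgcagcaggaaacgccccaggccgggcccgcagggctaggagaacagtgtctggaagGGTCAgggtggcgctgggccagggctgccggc

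GGTCA occurred 1 time in the B3gnt5 window, 0 times in that of B3gnt7 and 1 time in that of Fut4. GGGCGG occurred 2, 2 and 0 times. Neither the whole element (GGTCA and TGACC with any 3 bases between) nor the AP-1 motif TGANTCA was found in these 3 windows. RefSeq windows were at hand for 45 members, 60 windows in all, since some genes have several starts. Of all 32851 windows 40.5% held GGTCA, 0.07% the whole element, 7.81% TGANTCA and 35.7% GGGCGG. Among the 60 member windows the shares were 26.7%, 0%, 3.33% and 56.7%. The arm GGTCA lies within the whole element, so the first 2 searches overlap. A match is a description of letters and not a bound site.

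In L cells the highest transcripts per length of the set were those of capping enzymes and of the extension enzyme B3gnt3. Per kb of exon, B4galnt2, which adds the terminal N-acetylgalactosamine of the Sda antigen, came first with a mean level of 29287 ± 5628 (SD, n = 5) normalised counts. The sialyltransferase gene St3gal4 followed at 6369 ± 1773, and B3gnt3, an enzyme of chain extension and core 1 lengthening, at 4319 ± 398. St6galnac6, a sialyltransferase known for gangliosides and disialyl Lewis a, had 3850 ± 399 per kb. B4galnt2 stood above the next gene in every library, whereas the ranges of St3gal4 and B3gnt3 overlapped.

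Lacto-series start and chain extension held the member that passed the test. B3gnt5, which adds N-acetylglucosamine to lactosylceramide and so starts lacto- and neolacto-series glycolipids, measured 139 and 240 normalised counts in vehicle L cells. In EB L cells it measured 1056, 1207 and 974 and was above both vehicle libraries in each. These values rest on 131 and 214 reads in vehicle against 1051 to 1333 reads in EB. B3gnt5 rose, with a log2 fold change of 2.55 ± 0.25 (SE) and an adjusted p of 0.0404 in limma. It lies on chromosome 16, 19760192 to 19772760 in mm10.

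B3gnt5 was the only 1 of 63 members called, where 0.0247% of all 16217 genes tested were called. Its result was known when the families were chosen, so this comparison supports nothing about the set. The call depended on the tool and on the EB libraries. Its adjusted p was 0.102 in edgeR and 6.80e-16 in DESeq2, and the range over all alternatives was 6.80e-16 to 0.4. Without EB replicate 1, 2 or 3 limma called 0 members and gave B3gnt5 an adjusted p of 0.13, 0.4 and 0.276. Leaving out a vehicle replicate leaves 1 vehicle library, which is then assumed to vary like the EB libraries. Calls of those 2 fits are therefore not given. The log2 fold change of B3gnt5 stayed between 2.16 and 2.94 with any 1 L-cell library left out.

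B3gnt7, a poly-N-acetyllactosamine enzyme that works on sulfated keratan-type and mucin chains, measured 950 and 2138 in vehicle L cells against 8423, 7567 and 6694 in EB L cells. The groups did not overlap. The log2 fold change was 2.40 ± 0.30 with an adjusted p of 0.0749 in limma, above the threshold of 0.05, and 3.53e-10 in DESeq2 and 0.146 in edgeR. Per kb, B3gnt7 had a mean level of 598 normalised counts in vehicle against 2929 in EB.

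The other extension enzymes showed smaller differences. B3galt5, which makes type 1 chains, the base of Lewis a and Lewis b, measured 3802 and 4008 in vehicle against 5558, 5105 and 5339 in EB (log2 fold change 0.45 ± 0.12, limma adjusted p = 0.246). The groups were separate although the difference was small, and DESeq2 called it at an adjusted p of 0.0346. B3gnt3 overlapped between treatments, at 12193 and 15182 in vehicle against 12395, 13488 and 12710 in EB. Extension genes were grouped by symbol, so the group also holds linker genes of proteoglycans such as B3galt6. Of 18 genes of this group kept in L cells 8 were higher and 10 lower. Their log2 fold changes ran from -0.49 to 2.55, with a median of -0.072.

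**Figure D1:**
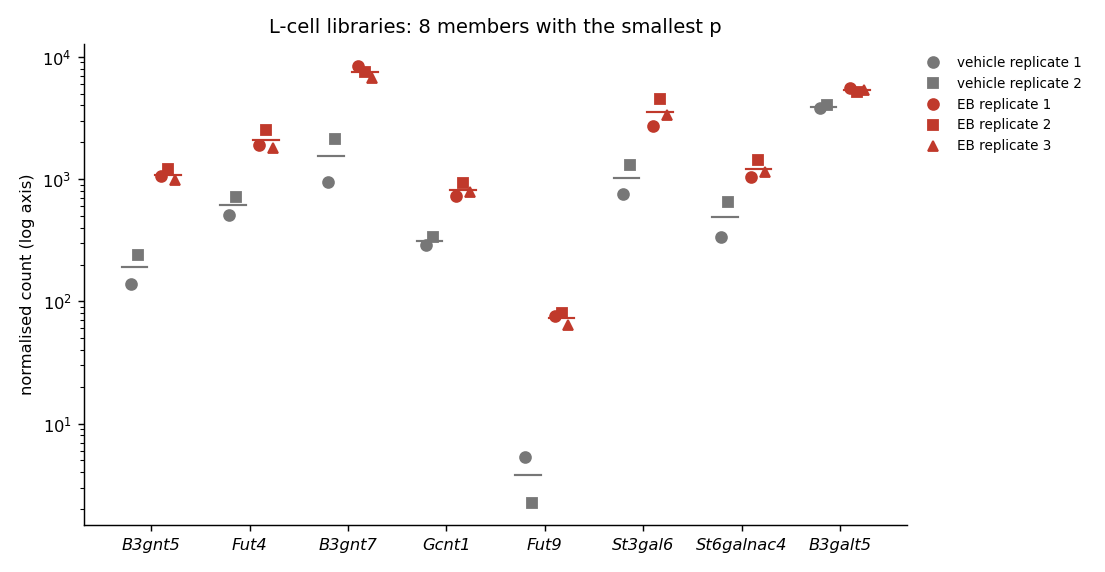
Normalised counts (log axis) of the 8 members with the smallest limma p in L cells, 1 symbol per library, vehicle in grey and EB in red, with a line at each group mean. For B3gnt5 the 3 EB libraries sit at 974 to 1207 and the vehicle libraries at 139 and 240, and the groups are separate for all 8 genes.

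Fucosyltransferases, which cap chains with fucose, followed. Fut4, which makes Lewis x and its sialylated form, measured 513 and 715 in vehicle L cells against 1888, 2530 and 1793 in EB L cells. All EB values lay above both vehicle values. Its log2 fold change was 1.75 ± 0.21, with an adjusted p of 0.0749 in limma, 1.08e-09 in DESeq2 and 0.146 in edgeR.

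Fut9, another Lewis x enzyme, was close to 0 in vehicle L cells, at 5.32 and 2.24 normalised counts or 5 and 2 reads. It measured 75.4, 80.6 and 64.1 in EB L cells. Fut9 passed the level rule through its EB libraries alone, so a difference was built into its selection. Its log2 fold change was 4.03 ± 0.57 (limma adjusted p = 0.0865, DESeq2 adjusted p = 6.60e-06).

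Fut8, which adds the core fucose of N-linked chains, measured 1131 and 1541 in vehicle against 1647, 2681 and 2213 in EB (log2 fold change 0.70 ± 0.23, limma adjusted p = 0.32). Fut2, the secretor-type enzyme that makes H antigen in gut epithelium, overlapped between groups at 2840 and 3645 against 2903, 4068 and 3390. Of 7 fucosyltransferase genes kept in L cells 6 had higher values and 1, Fut11, a lower value, and Fut4, Fut8 and Fut9 had separate groups, where 49.7% of all genes were higher and 14.3% were separate with EB higher. Fut9 and Fut10 passed the level rule only through EB.

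Branching and core enzymes differed from each other. Gcnt1, the enzyme of core 2 branching in many tissues, measured 288 and 334 in vehicle L cells against 728, 927 and 784 in EB L cells. The EB libraries were all above the vehicle libraries, with a log2 fold change of 1.38 ± 0.19 (limma adjusted p = 0.0856, edgeR 0.146, DESeq2 adjusted p = 2.17e-07). Gcnt3, the mucin-type core 2 and core 4 enzyme, was far more abundant and overlapped between groups, at 9627 and 11254 in vehicle against 7997, 10425 and 10285 in EB. Gcnt4 overlapped as well, at 890 and 805 against 1165, 651 and 1058. B3gnt6, the core 3 enzyme, measured 504 and 408 in vehicle against 133, 150 and 441 in EB, with the third EB library inside the vehicle range.

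The core 1 enzyme gene C1galt1 measured 381 and 325 in vehicle against 373, 644 and 498 in EB, and its chaperone gene C1galt1c1 1472 and 1215 against 1420, 1710 and 1244. Neither pair of groups was separate.

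Of the enzymes that start the chain, the 12 Galnt genes kept in L cells had overlapping groups. Their log2 fold changes ran from -0.23 to 0.87, with a median of 0.13. Groups were separate with EB higher for 14.3% of all genes and with EB lower for 14%. At such shares 12 genes are too few to set these enzymes apart. Galnt4, a glycopeptide-preferring enzyme, was the highest of them by count, with 9237 and 7801 in vehicle against 7834, 7841 and 8102 in EB. Galnt10 measured 5083 and 6037 in vehicle against 3702, 8303 and 7854 in EB, and Galnt12 4726 and 6105 against 3555, 7533 and 6342. For both genes EB replicate 1 lay below the vehicle range and EB replicates 2 and 3 above it. The 12 goblet markers took 1.26%, 2.52% and 1.94% of the normalised counts in those 3 libraries and 0.614% and 1.23% in vehicle.

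Sialyltransferases, which cap chains with sialic acid, held both higher and lower genes. St3gal6, which sialylates galactose on N-acetyllactosamine chains, measured 749 and 1296 in vehicle L cells against 2689, 4520 and 3352 in EB L cells. The groups were separate, with a log2 fold change of 1.80 ± 0.28 (limma adjusted p = 0.103, edgeR 0.168, DESeq2 adjusted p = 1.55e-06). St6galnac4, which makes disialyl core 1, measured 334 and 648 in vehicle against 1032, 1433 and 1144 in EB (log2 fold change 1.35 ± 0.29, limma adjusted p = 0.197, DESeq2 adjusted p = 0.0035). It ends at base 32599696 of chromosome 2 and St6galnac6 begins at 32599709, so reads near that boundary may be assigned to either gene.

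St3gal4, the most abundant sialyltransferase gene, measured 10011 and 11337 in vehicle against 19603, 13358 and 12410 in EB. EB replicate 1 stood highest there, the reverse of its place for Galnt10 and Galnt12. The log2 fold change of St3gal4 was 0.48 ± 0.21 (limma adjusted p = 0.431). St6galnac6 overlapped between groups, at 9308 and 12297 against 10484, 10560 and 11443.

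Genes of gangliosides, the sialylated glycolipids, went in both directions without passing the test. St3gal5, the GM3 synthase gene, measured 832 and 1577 in vehicle against 215, 786 and 191 in EB (limma adjusted p = 0.303). B4galnt1, the GM2 and GD2 synthase gene, measured 4283 and 5506 against 3074, 3624 and 4085 (log2 fold change -0.44 ± 0.17, limma adjusted p = 0.386). The EB libraries were below both vehicle libraries for each of these genes. St8sia5, a ganglioside sialyltransferase gene, measured 74.5 and 0 in vehicle against 346, 139 and 99.4 in EB (limma adjusted p = 0.353), with the groups separate, and passed the level rule only through EB.

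B4galnt2 measured 65393 and 53537 in vehicle L cells against 40354, 44345 and 48530 in EB L cells (log2 fold change -0.42 ± 0.16, limma adjusted p = 0.369). The 4 B4galnt genes together held 40.2% and 32.7% of all member counts in vehicle against 25.8%, 24.9% and 28.2% in EB. The sialyltransferase share was 14.8% and 18.3% in vehicle against 23.2%, 22.8% and 20.7% in EB.

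**Figure D2:**
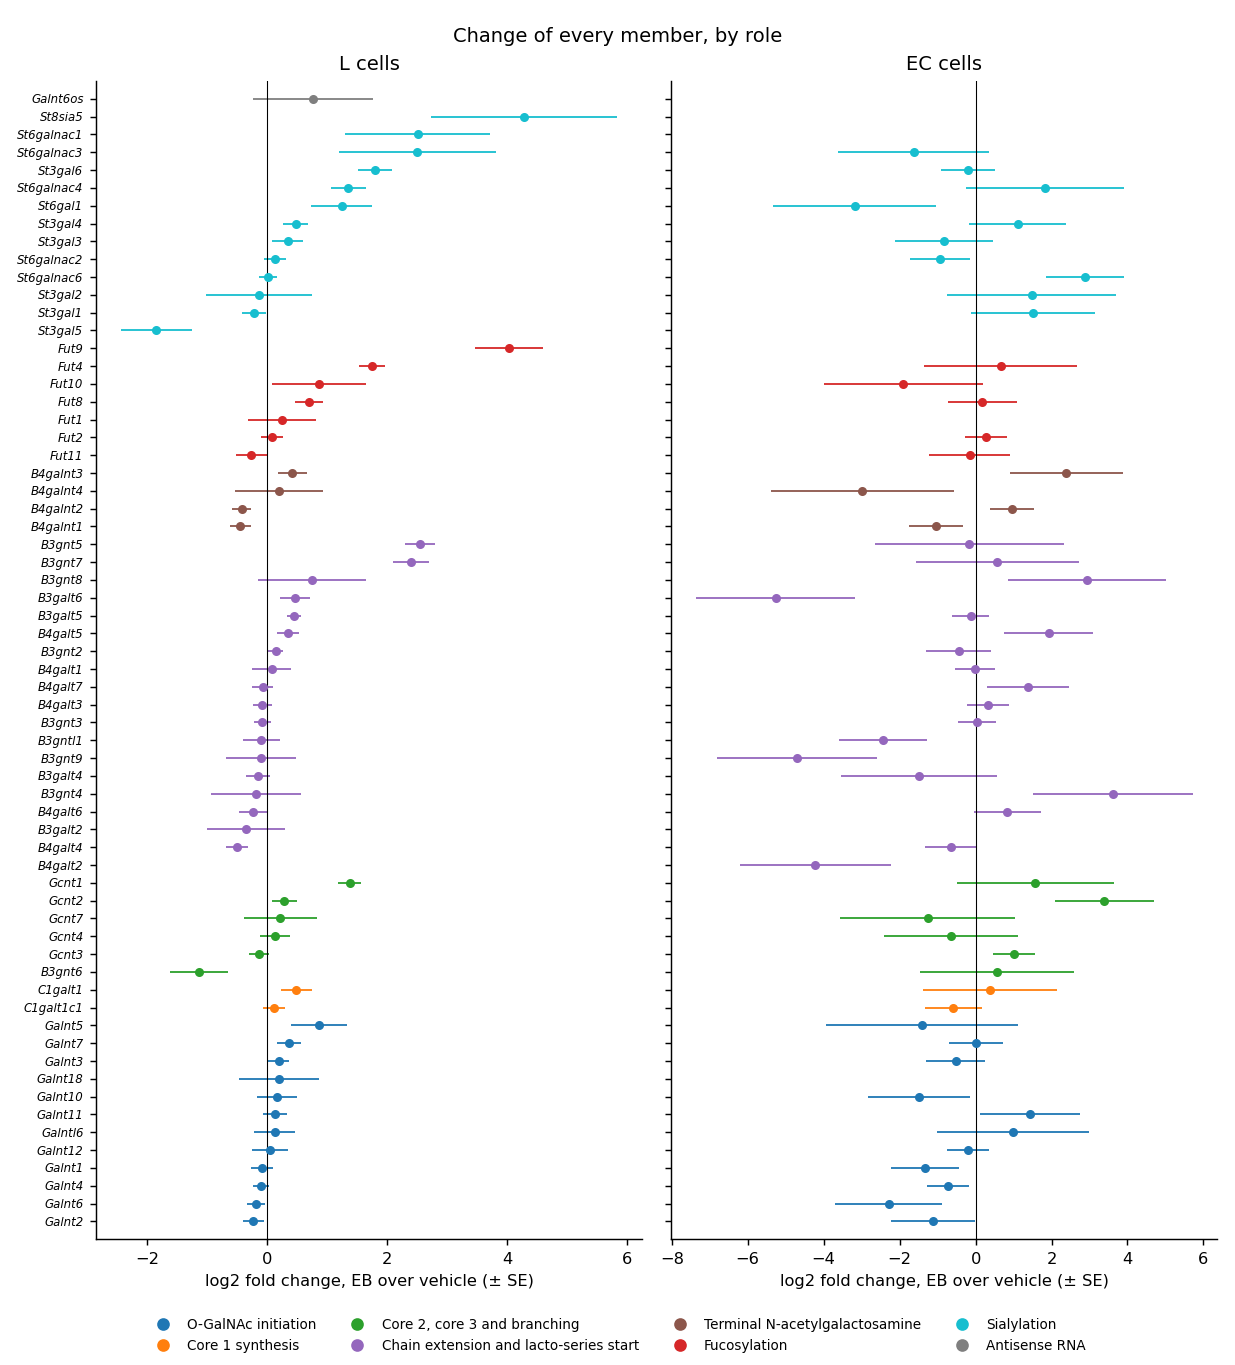
Log2 fold change of EB over vehicle (point, bar ± SE, limma) for every member kept in L cells (left, 63 genes) and EC cells (right, 56 genes), coloured by role, in the same gene order. In L cells B3gnt5, B3gnt7, Fut4, Gcnt1 and St3gal6 stand to the right with short bars, while EC-cell bars are mostly longer, on an axis that covers a wider range.

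Of the 63 members tested in L cells, 41 had higher and 22 lower values in EB, where 49.7% of all genes were higher, with a median log2 fold change of 0.15 against -0.0022 over all genes. Groups were separate with EB higher for 15 members, 23.8%, where 14.3% of all genes were. The 15 include Fut9, St6galnac1 and St8sia5, which passed the level rule only through EB, and B3gnt5, B3gnt7 and Fut4, known beforehand. They were separate with EB lower for 5 members (B4galnt1, B4galnt2, B4galt4, B4galt6 and St3gal5), 7.94%, against 14% of all genes. DESeq2 called 8 members, all higher, which is 12.7% against 3.28% of all genes called and 2.18% called higher. They were B3gnt5, B3gnt7, Fut4, Fut9, Gcnt1, St3gal6, St6galnac4 and B3galt5. Results for B3gnt5, B3gnt7 and Fut4 were known when the families were chosen. edgeR called 0 members and 0% of all genes. These shares are descriptions, as 8 members passed the level rule in L cells through the EB libraries alone and 1 through libraries of both groups together, leaving 54 that passed in each group.

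Other transcripts differed between the same L-cell libraries, and their part in the glycosyltransferase differences was not tested. Hoxb13, a homeobox gene of the distal colon, measured 1132 and 1840 in vehicle against 9676, 7035 and 5063 in EB. Its log2 fold change was 2.28 ± 0.29 (limma adjusted p = 0.0784, DESeq2 adjusted p = 1.96e-10). The Hox genes were looked at after their values were known. Colonocyte markers, 10 genes, took 8.96% and 7.32% in vehicle against 5.69%, 5.89% and 5.44% in EB, and 7 of 10 were lower. All 12 goblet markers and all 8 stem and progenitor markers had higher values in EB, and the stem and progenitor share went from 0.00562% and 0.00573% to 0.0116%, 0.0149% and 0.0118%. The L-cell hormone share was 0.0409% and 0.0154% in vehicle against 0.0566%, 0.172% and 0.28% in EB, so EB replicate 1 was close to vehicle there. In EB replicate 1, B3gnt7 and Hoxb13 both lay above their values in replicates 2 and 3, while B3gnt5 and Fut4 lay between. What these orders owe to the cells in each library was not tested. The 7 pan-endocrine markers all had higher EB values, with shares of 0.00282% and 0.00157% in vehicle against 0.00303%, 0.00607% and 0.00764% in EB. Of 6 EC-cell markers kept 5 were higher, with shares of 0.00754% and 0.00823% in vehicle against 0.0131%, 0.0258% and 0.0286% in EB. Of 6 stromal markers kept 5 were lower, with a median log2 fold change of -4.49. Limma called 0 genes of these lists and 0.0247% of all genes. DESeq2 called genes in each of the 7 lists, where it called 3.28% of all genes. With the smallest DESeq2 adjusted p of their lists, Smoc2 (stem, 4.91e-08), Snap25 (pan-endocrine, 0.00124) and Cck (L-cell hormone, 0.00757) were higher. So were Tph1 (EC-cell, 0.00841) and Clca1 (goblet, 0.0186), while Fabp2 (colonocyte, 2.45e-05) and Col3a1 (stromal, 0.000577) were lower. Other genes of each list were not called. Without vehicle replicate 2, the library high in stromal markers, the log2 fold change of B3gnt5 was 2.94 and that of Fut4 1.99. That fit has 1 vehicle library. With any 1 L-cell library left out they ran from 2.16 to 2.94 and from 1.515 to 1.99. The part of stromal RNA was not tested. No marker of these 7 lists was at 0 in all L-cell libraries.

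**Figure D3:**
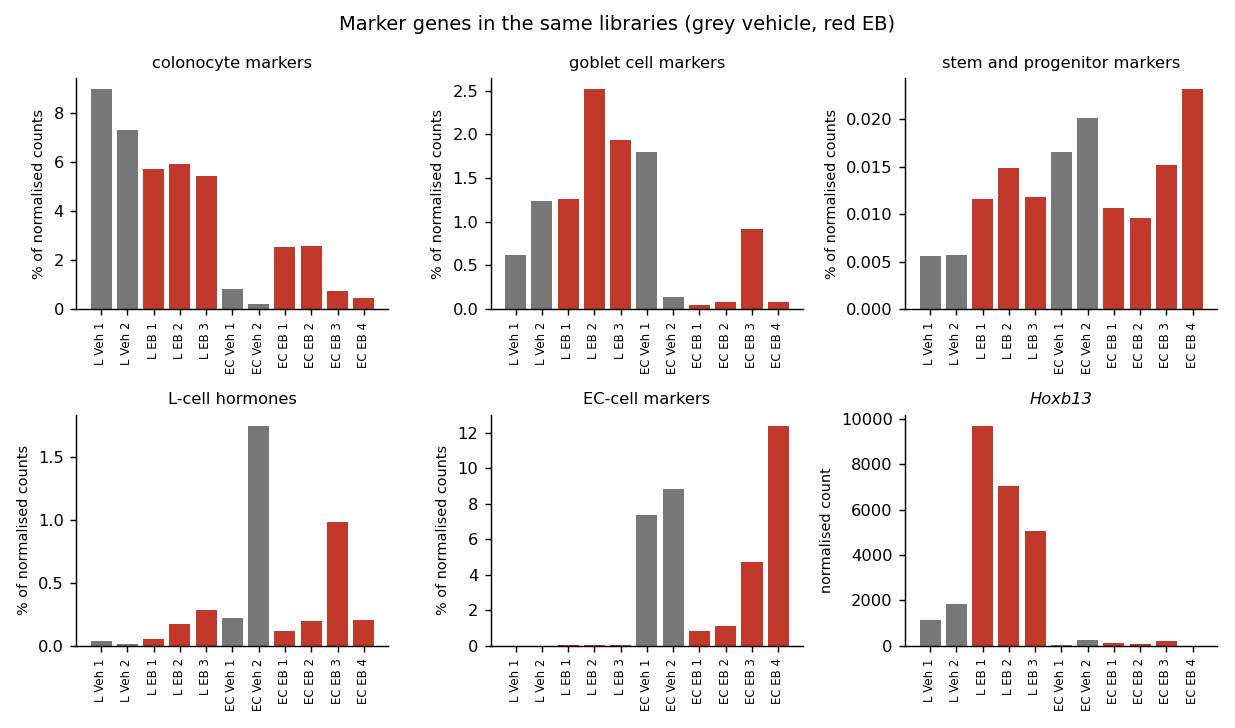
Share of normalised counts on 5 marker lists, and the normalised count of Hoxb13, in each of 11 libraries (vehicle grey, EB red, each bar from 0). Hoxb13 stands at 5063 to 9676 in EB L cells and 1132 to 1840 in vehicle L cells, and the EC-cell markers stand at 0.814% and 1.11% in EC EB replicates 1 and 2.

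Genes that supply or complete the same pathways gave 0 calls in limma in either direction in L cells. Of 25 genes of nucleotide sugar supply 12 were higher and 13 lower. Gne, which opens sialic acid synthesis, measured 8716 and 9973 in vehicle against 12456, 13839 and 13379 in EB (log2 fold change 0.50 ± 0.13, limma adjusted p = 0.234). Galk1, galactokinase, measured 1740 and 1762 against 1192, 1263 and 1263 (log2 fold change -0.50 ± 0.14, limma adjusted p = 0.246). Both genes had separate groups, and DESeq2 called both, at adjusted p values of 0.0249 and 0.0326.

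Of 9 mucin core protein genes kept 6 were higher and 3 lower. Muc1, a membrane mucin, measured 121 and 285 in vehicle against 422, 647 and 494 in EB. Its log2 fold change was 1.46 ± 0.37 (limma adjusted p = 0.234, DESeq2 adjusted p = 0.0227), while Muc3a had -0.44 ± 0.17. Of 14 other glycolipid genes 5 were higher and 9 lower. Gm2a, the GM2 activator protein, measured 306 and 278 in vehicle against 596, 523 and 484 in EB. A4galt, the globotriaosylceramide synthase gene, measured 66.0 and 136 in vehicle against 250, 286 and 255 in EB. For Gm2a and A4galt the limma adjusted p values were 0.218 and 0.222 and those of DESeq2 0.00769 and 0.0142, with the groups separate. Of 6 chain sulfotransferase genes 5 were higher, Chst4 by 0.86 ± 0.38 and Chst10 by 2.41 ± 1.17 in log2, neither past the test. At an unadjusted p under 0.05 limma counted 4 higher and 1 lower for nucleotide sugars, 2 and 1 for mucins, 5 and 1 for glycolipid genes and 0 for sulfotransferases, where 7.34% of all genes were higher and 4.22% lower by that rule.

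In EC cells the same enzymes were sparser and more uneven. Limma and edgeR called 0 of 56 members, and DESeq2 0 of the 52 to which it gave an adjusted p. Limma called 0% and edgeR 0% of all 15287 genes and DESeq2 0.108% of those it gave an adjusted p. At an unadjusted p under 0.05 limma counted 2 higher and 2 lower members, 3.57% each, where 2.43% of all genes were higher and 1.11% lower (3.55% in all). Of the 56 members 26 had higher and 30 lower values in EB, where 47.5% of all genes were higher. Of the 56, 33 passed the level rule in each group, 16 only through EB (B3gnt5, B3gnt7, Fut4 and Gcnt1 among them), 2 only through vehicle and 5 only across groups, so these counts support nothing about direction. The members with a mean of at least 100 in EB varied between the EB libraries with a median coefficient of variation of 59.1%, against 16.2% in L cells.

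B3gnt5 measured 90.7 and 0 in vehicle EC cells against 1.4, 16.9, 121 and 0 in EB EC cells. Each group held a library near 100 and a library at 0, and the log2 fold change of -0.17 ± 2.49 (limma adjusted p = 0.995) had no fixed sign, at -3.43 without vehicle replicate 2 and 3.09 without vehicle replicate 1. The 12 goblet markers took 1.79% and 0.137% of normalised counts in vehicle EC cells against 0.0441%, 0.0776%, 0.921% and 0.0837% in EB. Vehicle replicate 1 and EB replicate 3 were thus highest in goblet share and in B3gnt5. The part of goblet content in these values was not tested. B3gnt7 measured 113 and 6.62 in vehicle against 21.1, 323, 283 and 0.8 in EB (log2 fold change 0.57 ± 2.15). Fut4 measured 80.1 and 5.51 in vehicle against 1.4, 65.2, 38.9 and 274 in EB (log2 fold change 0.66 ± 2.02). With a library left out B3gnt7 ran from -1.39 to 2.52 and Fut4 from -1.16 to 2.48. The groups overlapped for all 3 genes, and Fut9 had 2 reads in 1 vehicle library and 7 in 1 EB library.

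**Figure D4:**
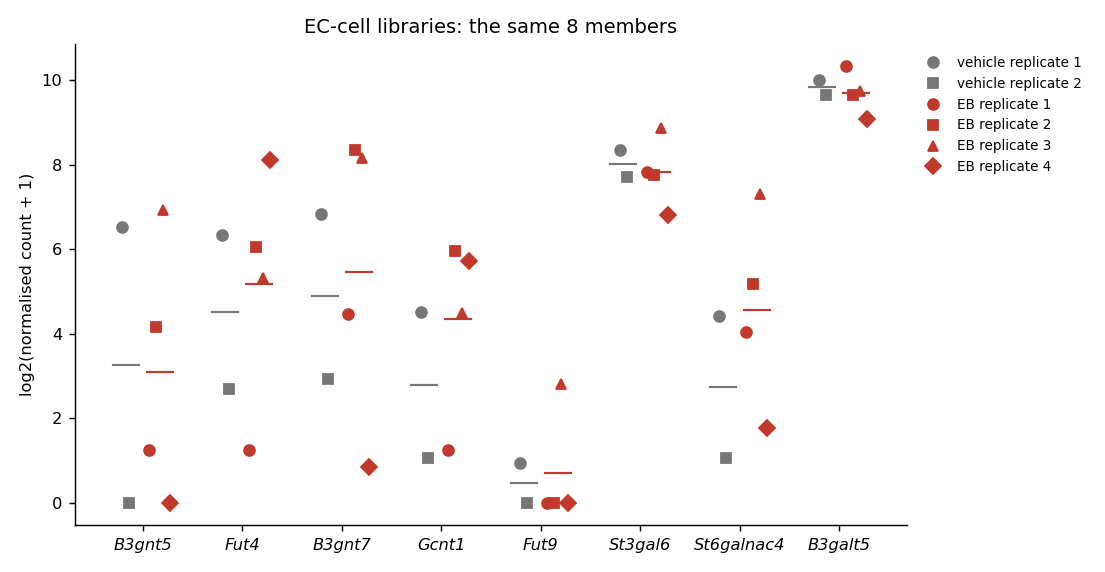
The same 8 members in EC cells, as log2(normalised count + 1), 1 symbol per library with a line at each group mean, vehicle grey and EB red. The groups overlap for all 8 genes, and B3gnt5 runs from 0 to 121 normalised counts among the EB libraries.

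Gcnt2, which makes I branches, and St6galnac6 had the smallest p among higher EC-cell members, although Gcnt2 passed the level rule only through the EB libraries. Gcnt2 measured 51.9 and 3.31 in vehicle against 270, 364, 101 and 60.8 in EB (log2 fold change 3.39 ± 1.31, limma adjusted p = 0.905). St6galnac6 measured 372 and 30.9 in vehicle against 2057, 1444, 750 and 183 in EB (log2 fold change 2.88 ± 1.03, limma adjusted p = 0.905). For both genes EB replicates 1 and 2, the libraries with the highest colonocyte share, were highest. Without these 2 libraries the log2 fold changes were 2.40 and 1.77. St3gal4 showed the same libraries highest, with 693 and 115 in vehicle against 2879, 2653, 237 and 75.2 in EB, and so did B4galnt2, with 1799 and 1222 against 5058, 4932, 1994 and 1420. Gcnt3 measured 837 and 298 in vehicle against 1741, 820, 824 and 879 in EB (log2 fold change 1.01 ± 0.56).

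The lower EC-cell members with the smallest p were sparse genes. B3galt6, which builds the linker of proteoglycans, measured 51.4 and 458 in vehicle against 0, 0, 17.3 and 13.6 in EB (log2 fold change -5.26 ± 2.10, limma adjusted p = 0.905). It was -3.25 without EB replicates 1 and 2. B3gnt9 measured 43.1 and 94.8 in vehicle against 0, 0, 38 and 0 in EB. B3gntl1 measured 144 and 289 in vehicle against 35.1, 53.4, 63.1 and 15.2 in EB (log2 fold change -2.44 ± 1.15), or -2.67 without EB replicates 1 and 2. B4galt2 measured 8.8 and 127 in vehicle against 0, 0, 12.1 and 0 in EB. B3gnt4 was at 0 in both vehicle libraries and at 0, 79.5, 6.05 and 38.4 in EB, so no fold is given. Groups were separate with EB lower for 4 members (B3galt6, B3gnt9, B3gntl1 and Galnt1), 7.14% against 6.3% of all genes. They were separate with EB higher for 2, Gcnt2 and B4galnt3, 3.57% against 4.98%. Both of these passed the level rule only through the EB libraries, so higher EB values were built into their selection.

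The more abundant EC-cell members overlapped between treatments. Galnt4 measured 993 and 1794 in vehicle against 371, 1039, 1078 and 1006 in EB. B3galt5 measured 1024 and 805 against 1292, 801, 858 and 537, B3gnt3 868 and 540 against 866, 940, 591 and 502, and Fut2 492 and 309 against 368, 714, 563 and 340. B4galnt1 measured 496 and 666 in vehicle against 107, 508, 203 and 555 in EB. Galnt12 measured 414 and 612 against 729, 451, 317 and 350. Each of these genes had reads in all 6 libraries.

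The pathway lists also gave 0 limma calls in EC cells. Values were higher for 8 and lower for 1 of 9 mucin genes, 14 and 10 of 24 nucleotide sugar genes, 3 and 9 of 12 other glycolipid genes, and 3 and 1 of 4 sulfotransferase genes. Ugcg, the glucosylceramide synthase gene that opens glycolipid synthesis, measured 123 and 79.4 in vehicle against 449, 551, 250 and 237 in EB (log2 fold change 1.81 ± 0.67, limma adjusted p = 0.905). Its groups were separate, also in L cells, where it measured 663 and 440 against 725, 861 and 794. Cmas, which activates sialic acid, measured 107 and 171 in vehicle EC cells against 514, 579, 308 and 233 in EB (limma adjusted p = 0.905). At an unadjusted p under 0.05 limma counted 0 mucin, 3 nucleotide sugar, 1 glycolipid and 0 sulfotransferase genes, all higher. By that rule 2.43% of all EC-cell genes were higher and 1.11% lower.

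The EB effect was then compared between cell types, as the difference of the EC-cell and L-cell fold changes over 55 members kept in both tables. Limma called 0 members and 0% of 13802 genes, edgeR 0, and DESeq2 0 of 54 members with an adjusted p, with 0.235% of all genes called by DESeq2. At an unadjusted p under 0.05 limma counted 2 members, both lower in EC cells, where 4.56% of all genes passed and 2.38% were lower. B3galt6 had the smallest p, with a difference of -5.73 ± 2.07 in log2, from a log2 fold change of 0.46 ± 0.25 in L cells and -5.26 ± 2.10 in EC cells. St3gal6 had a difference of -2.01 ± 0.77, from 1.80 ± 0.28 in L cells and -0.21 ± 0.71 in EC cells, where it measured 323 and 207 in vehicle against 226, 215, 467 and 111 in EB. Gcnt2 had a difference of 3.10 ± 1.41, from 0.29 ± 0.21 in L cells. Each of the 3 had an adjusted p of 0.862 in limma. For B3gnt5 the difference was -2.72 ± 2.89, so a difference of 0 lies within 1 SE of the estimate.

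Levels per length followed a like order in both tables, which were normalised separately. B4galnt2 was first in each, with 1590 ± 1028 (SD, n = 6) normalised counts per kb in EC cells, followed by St3gal4 at 529 ± 623, St6galnac6 at 287 ± 283 and B3gnt3 at 235 ± 63.4. B4galnt2 was the highest member in each of the 6 libraries, whereas the gaps between the other 3 were smaller than the spread of St3gal4 over libraries. Of the 10 highest members in L cells 8 were among the 10 highest in EC cells, and Spearman's rho of the mean level per kb was 0.842 across the 64 members, which share libraries and depth within a table.

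**Figure D5:**
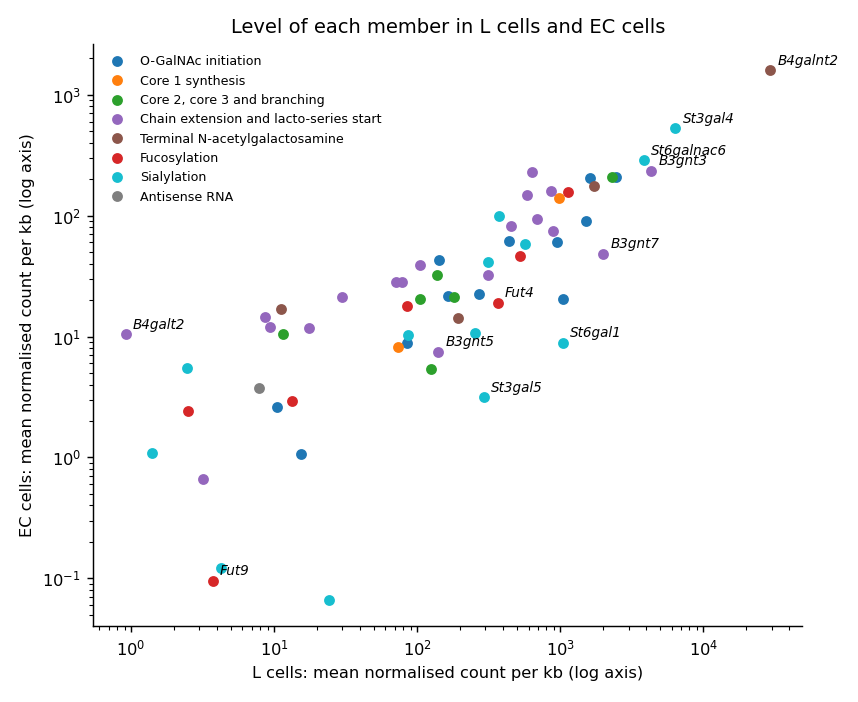
Mean normalised count per kb of exon of each of 64 members in L cells (x, 5 libraries) and EC cells (y, 6 libraries), both axes logarithmic, coloured by role. The tables were normalised separately, so the order and not the height can be compared: B4galnt2 is highest in both, at 29287 and 1590 per kb.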

How the data were processed

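RNA of sorted cells was made into full-length cDNA with SMART-Seq HT and into libraries with Nextera XT, a kit that does not mark strand, per the labels' protocols. The submitters' processing notes name STAR, featureCounts, DESeq2 and mm10, with no versions. Each deposited table holds a normalised signal, read counts per gene divided by a size factor of each library, with L and EC cells in separate tables, so tests were run within a table. Division by a library's step recovered whole reads within 0.001; for L-cell EB replicate 1 the step lies so near 1 that this could not be checked independently, and its reads entered only the edgeR and DESeq2 alternatives and the read numbers given.

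Genes reaching 10 in 2 libraries or more of a table were kept, transformed as log2(value + 1) and compared with limma 3.58.1 in R 4.3.3, with Benjamini-Hochberg adjustment over all genes kept and a threshold of 0.05. On this scale changes of low genes can come out smaller or larger than in DESeq2. In L cells the log2 fold change of Fut9 was 4.03 in limma and 4.27 in DESeq2, that of St8sia5 4.29 and 2.39. Cell types were compared by the interaction term over genes kept in both tables. edgeR 4.0.16 (quasi-likelihood) and DESeq2 1.42.0 on recovered reads were alternatives, with adjusted p values that DESeq2 left missing kept missing. The fits were tested on simulated data. Other alternatives were the pseudocount, the filter, the scaling, a replicate block and leaving out libraries. Level per kb used exon unions of GENCODE M21.

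The members and lists were chosen with earlier results of these data known. Named genes were the 8 members with the smallest p in each table, the 3 with the smallest p for the difference, the 2 highest of each role, B3gnt5, B3gnt7, Fut4, any member called, and the 2 genes with the smallest p of each pathway list. Other members named, such as St3gal5, B3gnt6, Fut11, St8sia5, B4galt4, B4galt6, Galnt1 and B4galnt3, were chosen after their values were seen.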

Additional observations from a re-analysis of the deposited data

Results flagged for a closer look

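In the EB group of EC cells, the only group of 4 or more libraries, 29 sets of values were tested. The test looked for a library far from the others, and 6 sets stood out. Its chance rate of about 1 in 20 does not hold for counts with many zeros. A set with all values but 1 at 0 always stands out, and the 29 sets share the same 4 libraries. The 6 sets are therefore not set against chance. EB replicate 3 stood above the others for B3gnt5, at 121 normalised counts with the nearest at 16.9, and for B3gnt9 at 38.0, B4galt2 at 12.1 and Fut9 at 6.05, each with the others at 0. EB replicate 3 also had the highest goblet marker share of the EB libraries, 0.921%, and its part was not tested. EB replicate 1 stood low for Galnt4, at 371 with the nearest at 1006, and high for Gcnt3, at 1741 with the nearest at 879.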

How the results depend on the processing

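In L cells limma called 1 member, and 7 without a filter, 3 after quantile normalization, 0 in edgeR and 8 in DESeq2. With any 1 EB library left out limma called 0 members. At an adjusted p under 0.1, chosen after seeing the data, limma called 5 members, 7.94%, where 0.185% of all genes passed. B3gnt5, B3gnt7 and Fut4, known beforehand, were among them. Pseudocounts of 0.5 and 4, a filter at 50 and TMM factors left the count at 1. With the replicate number as a block it was 4, and the log2 fold change of Fut4 in EC cells was -0.87. The counts without a filter, after quantile normalization and with this block stand without the share of all genes called. Those counts are therefore not a result about the members as a set. The labels do not say that numbers pair libraries; deviations of same-numbered libraries correlated at 0.157 and 0.148 in L cells and 0.0361 and 0.00685 in EC cells. In EC cells, and for the difference between cell types, 0 members were called under every alternative run. With 1 library left out, log2 fold changes in EC cells ran from -3.43 to 3.09 for B3gnt5, -1.39 to 2.52 for B3gnt7, -1.16 to 2.48 for Fut4 and -0.56 to 0.13 for St3gal6. Without EC-cell EB replicates 1 and 2 together B3gnt5 was 0.21 and B3gnt7 -0.38. The cause was not tested. With 2 vehicle libraries per cell type and sparse reads in EC cells, the 0 calls there do not show that differences are absent or present.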
